A study of Homo sapiens with 6 samples.

Results

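The Wnt, TGF-beta, BMP and Notch pathways were examined in ARPE-19, a cell line grown from human retinal pigment epithelium (RPE), after silencing of METTL3. The genes were taken by symbol from the deposited table (WNT, FZD, DKK, SFRP except SFRP1, AXIN, LGR, RSPO, BMP except BMP1 and BMPER, BMPR, TGFB except TGFBI, GDF, INHB, ACVR, SMAD, GREM, NOTCH, JAG, DLL, HES and HEY families, and the single genes LEF1, TCF7, TCF7L1, TCF7L2, ID1 to ID4, BAMBI, NOG, FST, CHRD, LRP5, LRP6, RNF43, ZNRF3, NKD1 and NKD2). This gave 58 protein-coding genes out of 7758 listed genes: 20 of the Wnt pathway, 12 of the TGF-beta and activin pathway, 17 of the BMP pathway and 8 of the Notch pathway. The last one, JAGN1, shares the letters of the JAG family only, and encodes an endoplasmic reticulum protein outside these pathways. Of the 139 GENCODE 29 protein-coding genes that this rule takes, 41.7% were listed, beside 33.8% of all protein-coding genes. The study compared 3 libraries of cells carrying a hairpin RNA that targets METTL3 (sh-METTL3) with 3 libraries of cells carrying a control hairpin (sh-Control, genotype label Scramble). METTL3 is the catalytic subunit of the complex that writes N6-methyladenosine (m6A) into mRNA. The methods describe lentiviral infection and stable lines selected by puromycin or neomycin. All 6 libraries came from cells that received lipopolysaccharide (LPS), an inflammatory product of bacterial walls, for 24 h at 1 μg/ml. No library without LPS was analysed here. The sources do not say whether libraries of a group were separate infections or separate cultures of 1 line, so the p-values measure only the spread between these libraries, which may be technical.

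Wnt ligands bind Frizzled receptors with the co-receptors LRP5 and LRP6 and keep beta-catenin from being degraded, so that it can act with TCF and LEF factors, while other Wnt ligands act through beta-catenin-independent routes. TGF-beta and activin ligands signal through SMAD2 and SMAD3, BMP ligands and GDF5 and GDF6 through SMAD1, SMAD5 and SMAD9, and both branches share SMAD4 and are held in check by secreted inhibitors and inhibitory SMADs. Notch receptors are cleaved after contact with Jagged or Delta ligands on a neighbouring cell, and the released domain acts with RBPJ on HES and HEY genes. In RPE cells TGF-beta is best known for driving the loss of epithelial features, and Wnt and BMP signals for the patterning of the RPE during eye development.

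The table holds only genes that the authors had already called different between the groups. Every value is a scaled count, the read count divided by 1 size factor per library, and the recovered reads on listed genes numbered 10898434 to 17750052 per library, which is not the library depth. METTL3 itself was lower in the sh-METTL3 libraries (966, 1001 and 765 against 1154, 1108 and 1091, log2 fold change -0.30, adjusted p 0.032 by limma). This reduction lost its call with RLE factors in edgeR (-0.17, adjusted p 0.261), with TMM factors (0.0573), without the intensity trend (0.120) and without any 1 control library (0.0684 to 0.124), and was -0.18 without sh-METTL3 replicate 3. These values are of mRNA alone. The paper separately reported lower METTL3 protein by western blot and a lower m6A content of RNA in its METTL3-silenced ARPE-19 cells. Libraries of both groups carried RPE markers, 7 of 15 being listed, whose summed scaled counts ran from 18764 to 20012 in sh-Control and from 29984 to 33254 in sh-METTL3. The general epithelial keratins KRT8 and KRT18 carried most of that sum, and without them the 5 other markers ran from 2435 to 2528 in sh-Control and from 1421 to 1544 in sh-METTL3, where SERPINF1, at 1404 and 170.1 on average, made up the largest part of the control sum. The 4 higher markers were CDH3, KRT8, MITF and KRT18, with log2 fold changes of 2.13, 1.05, 0.85 and 0.41, and the 3 lower ones were SERPINF1, PMEL and BEST1, with -3.04, -1.80 and -1.73. RPE65, RLBP1 and TTR, which mark mature RPE, were not listed, and a gene outside the list may be silent or unchanged. Of 8 mesenchymal markers 6 were listed, 1 higher and 5 lower, with sums of 224604 to 252959 in sh-Control and 183417 to 219594 in sh-METTL3. Of 4 leukocyte markers only CD14 was listed (25.3 in sh-Control and 1.31 in sh-METTL3), of 4 neural markers only SYP, and none of the endothelial ones. The part of these marker differences in the results below was not tested. Replicate 3 of sh-METTL3 was the library farthest from its group's median for 20 of the 45 pathway genes with a mean of at least 50 in both groups, against 13 and 12 for replicates 1 and 2, and 15 for each control library.

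Upstream sequences of SMAD6 and HES1 are shown before the values, because they hold the binding letters of a pathway transcription factor beside a gene that differed. The first is SMAD6, an inhibitory SMAD, with the palindrome GTCTAGAC bound by SMAD3 and SMAD4 in capitals, its first letter 12 bases upstream of the start site (chr15:66701986-66702235, plus strand). The second is HES1, a Notch target, with both copies of TGGGAA, the core letters of the RBPJ site, in capitals at 84 and 70 bases upstream (chr3:194135898-194136147, plus strand). Both are the 250 bases upstream of the RefSeq start in GRCh38.p14, 5′ to 3′. The GENCODE starts differ from these and lie inside the windows, at 66702228 for SMAD6, within the palindrome, and at 194136145 for HES1.
SMAD6: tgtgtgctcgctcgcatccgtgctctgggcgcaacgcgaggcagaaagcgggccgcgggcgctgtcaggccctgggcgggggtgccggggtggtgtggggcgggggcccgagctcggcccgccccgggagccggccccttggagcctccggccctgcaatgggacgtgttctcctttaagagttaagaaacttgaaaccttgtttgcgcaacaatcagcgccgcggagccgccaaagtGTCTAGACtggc
HES1: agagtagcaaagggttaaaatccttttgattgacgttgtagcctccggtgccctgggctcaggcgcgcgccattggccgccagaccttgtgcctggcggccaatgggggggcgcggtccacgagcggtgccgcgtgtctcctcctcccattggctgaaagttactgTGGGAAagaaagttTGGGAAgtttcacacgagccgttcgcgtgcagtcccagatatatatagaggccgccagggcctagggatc

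Such windows were found for 50 of the 58 genes. GTCTAGAC, searched on both strands, was in 0.182% of all 35116 windows and in 1 of these 50, that of SMAD6. TGGGAA, on both strands, was in 20.8% of all windows and in 10 of the 50 (BMP4, FST, HES1, HEYL, LEF1, SMAD3, TCF7, TGFBR2, WNT5A and WNT5B). HEYL also held TGGGAA at both 178 and 99 bases upstream of its RefSeq start, and as shown later it moved the opposite way to HES1. Its window (chr1:39639644-39639893, minus strand) lies inside the GENCODE gene, which starts at 39639945. CTTTGAT, core letters of the TCF and LEF site, was in 2.26% of windows and in none of the 50. These matches describe letters only, and binding was not measured.

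The general direction of the 58 genes was counted first. All 58 passed an adjusted p of 0.05 by limma, but so did 97.9% of all listed genes, since the list was selected on these same libraries, and this count carries no information about the pathways. Of the 58, 25 were higher in sh-METTL3 (background over all listed genes 46.6%) and 33 were lower (background 51.3%). The called genes with a log2 fold change of at least 1 numbered 11, which is 18.97% of the 58, beside 17.4% of all listed genes. Those with a log2 fold change of -1 or below numbered 16, which is 27.6%, beside 13.1%. With RLE size factors in edgeR this order turned, with 14 at 1 or more and 12 at -1 or below. The groups did not overlap for any of the 58, as for 98.5% of listed genes. The median log2 fold change was -0.31 for the 58 genes and -0.21 for all listed genes. By pathway it was 0.48 for BMP, 0.42 for Notch, -0.49 for Wnt and -0.54 for TGF-beta and activin. Because RNA was measured in bulk, fewer cells of a kind and less RNA per cell cannot be told apart in any of these values.

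**Figure D1:**
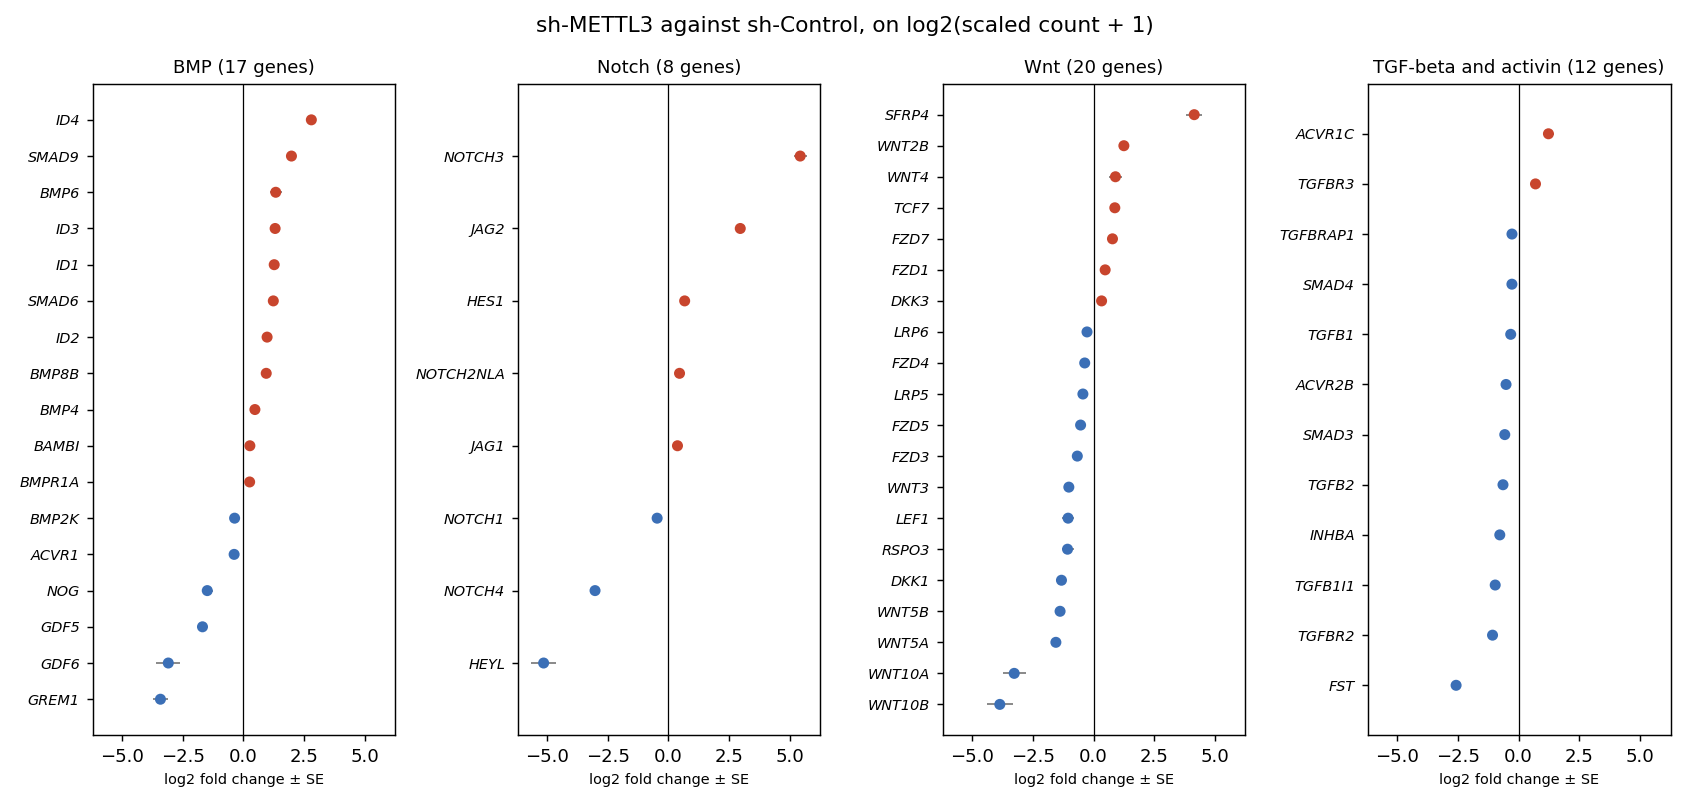
Log2 fold change of each pathway gene in sh-METTL3 against sh-Control (x axis, on log2 of scaled count + 1), with 1 panel per pathway and genes on the y axis. Points are limma estimates from 3 libraries a group and bars are ± SE. Red points were higher and blue points lower in sh-METTL3. For BMP 11 of 17 were higher, beside 46.6% of all listed genes. For TGF-beta and activin 10 of 12 were lower, beside 51.3%.

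The BMP pathway held the ID genes, which were all higher in sh-METTL3. The ID genes encode helix-loop-helix proteins that bind E proteins without binding DNA and are well known direct targets of BMP receptor SMADs. ID4 (ENSG00000172201, GRCh38 chromosome 6, 19837386 to 19840684, plus strand) held scaled counts of 291, 252 and 238 in sh-Control and 1773, 2004 and 1696 in sh-METTL3. It went from 260.4 ± 27.5 to 1824 ± 160.1 (SD, n = 3), 7.01-fold (log2 fold change 2.81, SE 0.095, adjusted p 4.32e-08 by limma). ID1 held 604, 765 and 704 in sh-Control against 1671, 1653 and 1662 (log2 fold change 1.27, adjusted p 2.14e-06 by limma). The sh-METTL3 libraries of ID1 (1662 ± 8.78, SD, n = 3) lay closer together than those of any other ID gene. ID3 held 1288, 1525 and 1622 against 3706, 3989.7 and 3289 (log2 fold change 1.31, adjusted p 3.66e-06 by limma). ID2 held 183, 171 and 180.4 against 341, 294 and 434 (log2 fold change 0.98, adjusted p 0.000428 by limma), and its mean went from 178 to 356. Per kb of exonic length, the order in sh-Control was ID3 with 823, ID1 with 560, ID4 with 111 and ID2 with 80.7. In sh-METTL3 the order was the same, with 2037, 1348, 778 and 162 and no neighbouring ranges overlapped in either group.

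SMAD9, a receptor-regulated SMAD of the BMP branch, and SMAD6, an inhibitory SMAD that restrains BMP receptors, were both higher. SMAD9 (ENSG00000120693, chromosome 13, 36844831 to 36920765, minus strand) held 306, 299.8 and 321 in sh-Control and 1189.5, 1236 and 1249 in sh-METTL3. Its mean rose 3.96-fold (log2 fold change 1.98, SE 0.071, adjusted p 5.08e-08 by limma). SMAD6 (ENSG00000137834, chromosome 15, 66702228 to 66782848, plus strand), whose upstream sequence is given above, held 517, 467 and 497 against 1059.8, 1276 and 1162. Its mean rose 2.36-fold (log2 fold change 1.24, SE 0.083, adjusted p 2.5e-06 by limma), while 24 of the 40 listed genes nearest to it on chromosome 15 were lower (median -0.29). Per kb, SMAD9 and SMAD6 stood at 54.0 and 57.7 in sh-Control and at 214 and 136 in sh-METTL3. Their control ranges overlapped and their sh-METTL3 ranges did not. SMAD1, SMAD5 and SMAD7 were not listed.

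Both listed secreted BMP inhibitors of the rule were lower. GREM1 (gremlin 1; ENSG00000166923, chromosome 15, 32717974 to 32745107, plus strand) binds BMP ligands and keeps them from their receptors. It held 282, 342 and 408 in sh-Control and 44.8, 36.1 and 17.9 in sh-METTL3, going from 344 ± 62.6 to 32.9 ± 13.7 (SD, n = 3), a mean 10.4-fold lower. The log2 fold change was -3.42 (SE 0.297, adjusted p 1.25e-05 by limma). Among the 40 listed genes nearest to GREM1 36 were lower (median log2 fold change -1.03), and the part of this neighbourhood in its own value was not tested. NOG (noggin) held 299.9, 299 and 242 against 75.6, 86.3 and 147 (log2 fold change -1.49, adjusted p 0.000529 by limma). Replicate 3 of sh-METTL3 was the lowest of its group for GREM1 and the highest for NOG, yet below every control library in both. Such a gap between the groups was found for 98.5% of all listed genes. BAMBI, a membrane decoy receptor for BMP and TGF-beta ligands, was higher by a log2 value of 0.27 (1935 ± 53.1 to 2334 ± 203), and was not past the threshold without the intensity trend of limma (adjusted p 0.0536).

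Among BMP ligands, 3 were higher and 2 lower, beside 46.6% and 51.3% of all listed genes. BMP6 held 42.3, 68.2 and 35.5 in sh-Control and 117, 133 and 111 in sh-METTL3 (log2 fold change 1.34, SE 0.240, adjusted p 0.00155 by limma). BMP8B went from 78.7 to 153 and BMP4 from 469 to 653 in mean scaled count, with log2 fold changes of 0.94 and 0.48. Per kb, BMP4 was the most abundant of the listed BMP ligands in both groups, with 152 in sh-Control and 212 in sh-METTL3, and GDF5 stood next in sh-Control with 123. GDF5, a ligand best known from joint formation, held 321, 354 and 299 against 99.8, 83.8 and 119 (log2 fold change -1.69, SE 0.151, adjusted p 1.57e-05 by limma). Of the exonic length of GDF5, 35.2% overlaps GDF5OS on the opposite strand, and the use of strand in counting was not given in the sources used here. GDF6, a close relative of GDF5, had 53 reads over the control libraries and 3 over the sh-METTL3 libraries, a ratio of 14.4 with a 95% exact interval of 4.67 to 72.0 that covers counting error only. Without sh-METTL3 replicate 1 only 1 read of GDF6 remained there, and the ratio of means was 24.0 in place of 14.7. The 2 GDF genes thus fell together while the 3 BMP genes rose.

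The type I receptors differed by less than 1 log2 unit. ACVR1, a type I receptor for BMP ligands, held 507, 528 and 459.9 in sh-Control and 384, 345 and 419 in sh-METTL3 (log2 fold change -0.38, adjusted p 0.0122 by limma). BMPR1A held 883, 815 and 892 against 973, 1036 and 1088 (log2 fold change 0.26, adjusted p 0.0147 by limma). ACVR1 lost its call with RLE size factors in edgeR (adjusted p 0.079) and without sh-Control replicate 1 (0.0510), sh-Control replicate 2 (0.0649) or sh-METTL3 replicate 2 (0.0536), and BMPR1A without sh-Control replicate 2 (0.0708). BMP2K, a BMP-inducible kinase, was lower by a log2 value of -0.36, and 56.8% of its exonic length overlaps PAQR3 on the opposite strand. It lost its call with RLE size factors and without 4 of the 6 libraries in turn. BMPR1B and BMPR2 were not listed.

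**Figure D2:**
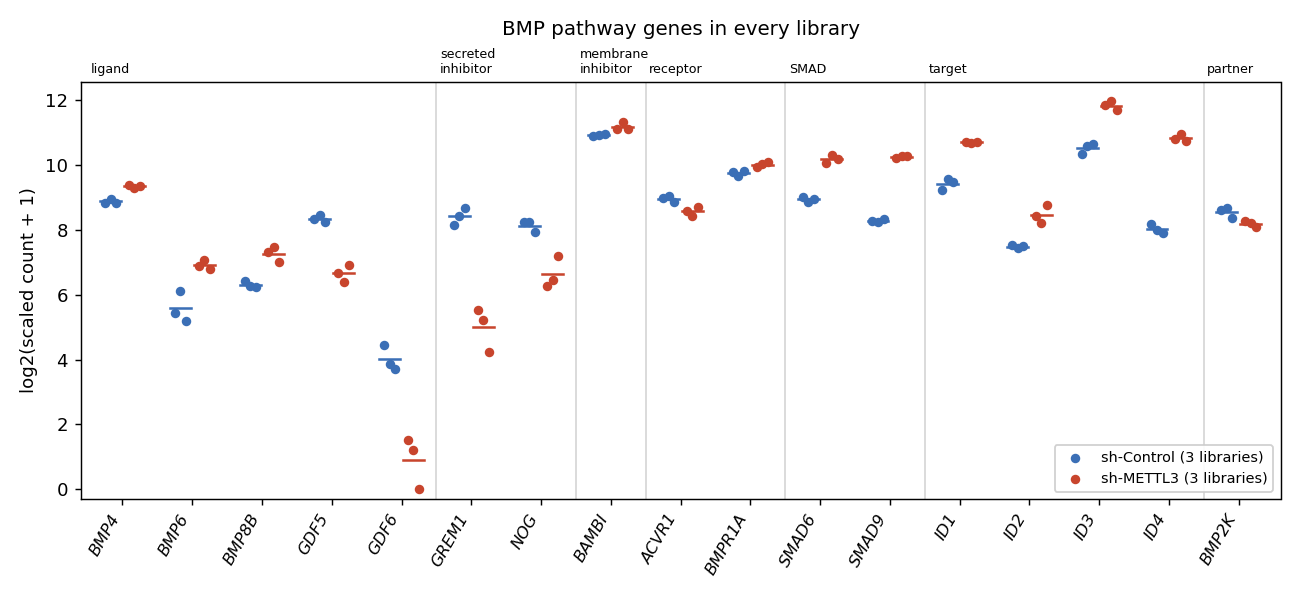
Log2 of scaled count + 1 (y axis) of the 17 BMP pathway genes (x axis, grouped by role) in each of 3 sh-Control (blue) and 3 sh-METTL3 (red) libraries, with lines at the group means. The red points of ID1 to ID4, SMAD6 and SMAD9 all lie above the blue ones, and those of GREM1, NOG, GDF5 and GDF6 all lie below. The groups did not overlap for 98.5% of all listed genes.

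Outside the rule, 11 of 19 further BMP pathway genes from a written list were listed, 6 of them higher, 4 lower and 1 (CRIM1, log2 fold change 0.30) not past the threshold (adjusted p 0.0505 by limma), beside 97.9% of listed genes called and 46.6% higher. With RLE size factors in edgeR 7 were higher and 3 lower, CRIM1 being among the higher ones (0.42, adjusted p 0.00607). KCP, a secreted protein that enhances BMP signals, went from 67.6 to 477 in mean scaled count, a log2 fold change of 2.84. The secreted antagonists NBL1 and CHRDL1 were higher too, with 1.17 and 0.92, while BMPER, a secreted BMP-binding protein, and RGMB, a BMP co-receptor, were lower, with -1.35 and -1.15. Secreted BMP antagonists therefore did not move one way, since GREM1 and NOG fell and NBL1 and CHRDL1 rose.

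In the Notch pathway the order of the receptor genes changed. NOTCH3 (ENSG00000074181, chromosome 19, 15159038 to 15200981, minus strand) held 6.38, 15.4 and 11.2 in sh-Control and 491, 504 and 484 in sh-METTL3. It rose 44.8-fold, from 10.99 ± 4.50 to 493 ± 10.2 (SD, n = 3). Its log2 fold change of 5.44 (SE 0.265, adjusted p 3.27e-07 by limma) was the highest of the 58 genes. NOTCH4 (ENSG00000204301, chromosome 6, 32194843 to 32224067, minus strand) held 183, 188 and 154 against 23.3, 19.3 and 19.04. Its mean was 8.51-fold lower (log2 fold change -3.03, SE 0.189, adjusted p 1.48e-06 by limma). NOTCH4 is known mainly from endothelial cells and NOTCH3 from vascular smooth muscle and pericytes, and a part of other cells in these values was not tested. NOTCH1, the most widely used receptor of the family, held 1066, 1159 and 933 against 701, 739.7 and 841 (log2 fold change -0.47, SE 0.096, adjusted p 0.00333 by limma). Per kb, the order of the full-length receptors in sh-Control was NOTCH1 with 101, NOTCH4 with 17.96 and NOTCH3 with 1.17. In sh-METTL3 it was NOTCH1 with 73.3, NOTCH3 with 52.5 and NOTCH4 with 2.11, and no neighbouring ranges overlapped in either group. NOTCH2NLA, a human gene derived from a partial copy of NOTCH2, held 152, 147 and 159.8 against 256, 210.1 and 174 (log2 fold change 0.46, adjusted p 0.0417 by limma). That value is uncertain, because near-identical copies can share its reads and its call was lost under 8 of 19 alternatives, with adjusted p from 0.00609 to 0.188. NOTCH2 was not listed.

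Both Jagged ligands were higher, JAG2 by far the more. JAG2 (ENSG00000184916, chromosome 14, 105140981 to 105168824, minus strand) held 102, 76.9 and 59.8 in sh-Control and 564, 544 and 752 in sh-METTL3. Its mean rose 7.79-fold (log2 fold change 2.96, SE 0.197, adjusted p 2.28e-06 by limma). JAG1 held 842, 844 and 838 against 988, 948 and 1379.5 (log2 fold change 0.37, SE 0.122, adjusted p 0.0378 by limma). Replicate 3 of sh-METTL3 was the highest library for both, and without it the log2 fold change of JAG1 was 0.20. The call of JAG1 was lost without each control library in turn (adjusted p 0.110, 0.116 and 0.102) and without the intensity trend (0.152). Per kb, JAG1 and JAG2 stood at 90.4 and 12.4 in sh-Control. In sh-METTL3 they stood at 119 (106, 102 and 148) and 97.0 (88.2, 85.0 and 118), and the ranges overlapped. DLL1, DLL3 and DLL4, the Delta ligands, were not listed.

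The listed target genes split. HES1, a repressor that is the most general Notch target, held 65.4, 64.4 and 64.5 in sh-Control and 97.0, 104 and 109.7 in sh-METTL3 (log2 fold change 0.67, SE 0.157, adjusted p 0.00694 by limma). HEYL (ENSG00000163909, chromosome 1, 39624153 to 39639945, minus strand), a HEY family repressor that has been described as a target of NOTCH3, held 55.0, 52.8 and 52.3 against 0, 2.58 and 0. These are 180 reads over the control libraries and 2 reads over the sh-METTL3 libraries, a ratio of 73.3 with a 95% exact interval of 20.01 to 610.1, for counting error only. Both reads came from sh-METTL3 replicate 2, and without it HEYL had none in sh-METTL3. The adjusted p of HEYL was 2.81e-05 by limma. HEYL was therefore at or near 0 in the libraries in which NOTCH3, JAG2 and HES1 were high. HEY1 and HEY2 were not listed.

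**Figure D3:**
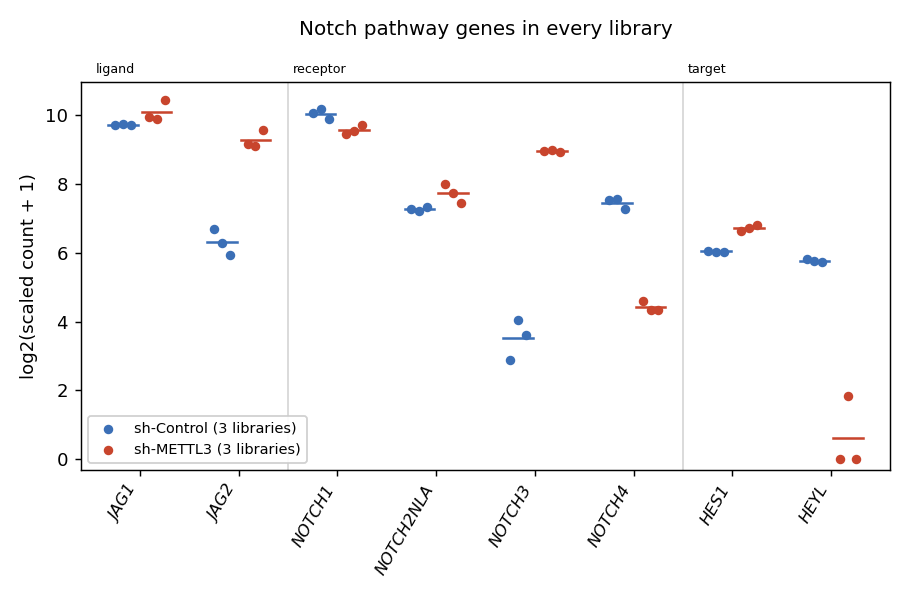
Log2 of scaled count + 1 (y axis) of the 8 Notch pathway genes (x axis, grouped by role) in each of 3 sh-Control (blue) and 3 sh-METTL3 (red) libraries, with lines at the group means. NOTCH3 and JAG2 are far higher and NOTCH4 and HEYL far lower in red, while JAG1, NOTCH1, NOTCH2NLA and HES1 differ by less than 1 log2 unit.

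Of 33 further Notch pathway genes 17 were listed, 3 of them higher, 13 lower and 1 (DTX2, log2 fold change -0.34) not past the threshold (adjusted p 0.0524 by limma), beside 97.9% of listed genes called and 51.3% lower. With RLE size factors in edgeR 7 of them were called lower, and none changed direction. The co-activators of the Mastermind family were all lower: MAML2 went from 2535 to 1183 in mean scaled count (log2 fold change -1.10), and MAML3 and MAML1 had log2 fold changes of -0.74 and -0.41. SPEN, a co-repressor bound to RBPJ, and RBPJ itself were lower, with -0.71 and -0.23. RBPJ lay close to the median of all listed genes (-0.21) and lost its call with RLE size factors in edgeR (-0.11, adjusted p 0.304). The 3 higher genes were NCSTN, a gamma-secretase subunit, the Fringe enzyme gene RFNG and the ubiquitin ligase gene MIB2, with 0.34, 0.36 and 0.38. None of the 17 was higher by a log2 value of 1.

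Of the 7 listed Wnt ligands 5 were lower in sh-METTL3, beside 51.3% of all listed genes, and WNT2B and WNT4 were higher. WNT5A (ENSG00000114251, chromosome 3, 55465715 to 55490539, minus strand), the best known ligand of beta-catenin-independent signalling, held 1827, 2130.1 and 2131 in sh-Control and 597, 759 and 722 in sh-METTL3. Its mean was 2.93-fold lower (log2 fold change -1.55, SE 0.097, adjusted p 1.55e-06 by limma). WNT5B, its closest relative, held 1469, 1682 and 1543 against 598, 619 and 583 (log2 fold change -1.38, SE 0.069, adjusted p 3.78e-07 by limma). Every sh-METTL3 library lay below every control library for both, and the groups did not overlap for 98.5% of all listed genes either. WNT2B (ENSG00000134245, chromosome 1, 112466541 to 112530165, plus strand), a ligand known from the developing eye margin, held 996, 1179.9 and 1289.9 against 2979.9, 3210.1 and 2151. It rose 2.41-fold (log2 fold change 1.25, SE 0.140, adjusted p 7.06e-05 by limma), and 21.2% of its exonic length overlaps ST7L on the opposite strand. Per kb, the order in sh-Control was WNT5B with 364, WNT5A with 274, WNT2B with 92.0, WNT3 with 75.6, WNT10B with 23.2, WNT4 with 4.64 and WNT10A with 2.65. Only WNT2B and WNT3 overlapped there among neighbours (79.3 to 103 and 71.0 to 80.9). In sh-METTL3 WNT2B came first with 221 (171 to 256), before WNT5B with 139 (136 to 144), WNT5A with 93.7, WNT3 with 37.3, WNT4 with 9.07 and WNT10B with 1.72, and no neighbouring ranges overlapped.

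Among the less abundant ligands the directions were also mixed. WNT10B held 63.8, 57.6 and 61.7 in sh-Control and 0.933, 2.58 and 10.1 in sh-METTL3, a mean 13.5-fold lower (log2 fold change -3.87, SE 0.539, adjusted p 0.000304 by limma). This fold rests on sh-METTL3 replicate 3, without which only 3 reads remained in sh-METTL3 and the mean was 34.8-fold lower. WNT10A, its closest relative, had 30 reads over the control libraries and none in sh-METTL3. With 3 reads per library as the limit that a count of 0 allows, it was at least 2.71-fold lower, and the median of the Wnt genes is the same with this bound, which also lies below it. WNT3 went from 328 to 162 and WNT4 from 21.0 to 41.1 in mean scaled count, with log2 fold changes of -1.02 and 0.91, and WNT4 was not past the threshold without sh-Control replicate 2 or 3 or without sh-METTL3 replicate 1 or 2 (adjusted p 0.0637 to 0.108 by limma). RSPO3, an R-spondin that amplifies Wnt signals at the receptor, went from 52.4 to 24.9 (log2 fold change -1.07).

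Secreted Wnt inhibitors moved both ways. DKK1 (ENSG00000107984, chromosome 10, 52314296 to 52318042, plus strand), which blocks LRP5 and LRP6 and is itself a Wnt target, held 1894, 2184 and 2409.7 in sh-Control and 875, 847 and 858 in sh-METTL3. Its mean was 2.52-fold lower (log2 fold change -1.32, SE 0.083, adjusted p 1.49e-06 by limma). SFRP4 (ENSG00000106483, chromosome 7, 37905932 to 38025695, minus strand), a soluble Frizzled-related protein that binds Wnt ligands, held 8.77, 15.4 and 7.48 against 242, 239.7 and 131. It rose 19.4-fold (log2 fold change 4.16, SE 0.320, adjusted p 5.72e-06 by limma), and replicate 3 was the lowest of the sh-METTL3 libraries. SFRP1, the related inhibitor left out by the rule, went from 513 to 22382 in mean scaled count. DKK3, a divergent member of the Dickkopf family that was by far the most abundant listed Wnt gene per kb in sh-Control, went from 12807 to 16168 (log2 fold change 0.33).

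Frizzled and LRP receptors differed by less than 1 log2 unit. Among them 5 were lower and 2 higher, beside 51.3% and 46.6% of all listed genes. FZD7 held 182, 190.2 and 198 in sh-Control and 299, 341 and 345 in sh-METTL3 (log2 fold change 0.78, SE 0.109, adjusted p 0.000303 by limma). LRP5 held 1905, 2046 and 1739.5 against 1446, 1459 and 1292 (log2 fold change -0.44, adjusted p 0.00112 by limma), and 34 of the 40 listed genes nearest to it on chromosome 11 were lower, with a median of -0.55. LRP6 held 1532, 1595 and 1531 against 1253, 1253 and 1365 (log2 fold change -0.27, adjusted p 0.00493 by limma), and was not past the threshold with RLE size factors in edgeR (adjusted p 0.115). FZD1 was higher (0.48), and FZD3, FZD5 and FZD4 were lower (-0.67, -0.53 and -0.36). The call of FZD1 was lost without sh-Control replicate 1 or 3 (adjusted p 0.05001 and 0.0505). For FZD4, 35 of the 40 nearest listed genes on chromosome 11 were lower (median -0.73), and 18.9% of its exonic length overlaps PRSS23 on the opposite strand. The part of these neighbourhoods in the values of LRP5 and FZD4 was not tested. Per kb, LRP5 was the most abundant of these receptors in both groups (308 and 227), and FZD7 rose from 49.3 to 85.1.

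The 2 listed TCF and LEF factors moved in opposite directions. LEF1 held 63.0, 61.5 and 64.5 in sh-Control and 40.1, 28.4 and 23.5 in sh-METTL3 (log2 fold change -1.05, SE 0.237, adjusted p 0.00576 by limma). TCF7 held 441, 426 and 345 against 675, 784 and 766 (log2 fold change 0.88, SE 0.108, adjusted p 0.000127 by limma). Per kb, TCF7 stood at 40.1 and 73.7 and LEF1 at 11.8 and 5.72 in sh-Control and sh-METTL3. TCF7L1, TCF7L2 and AXIN2, the most used readout of beta-catenin activity, were not listed.

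**Figure D4:**
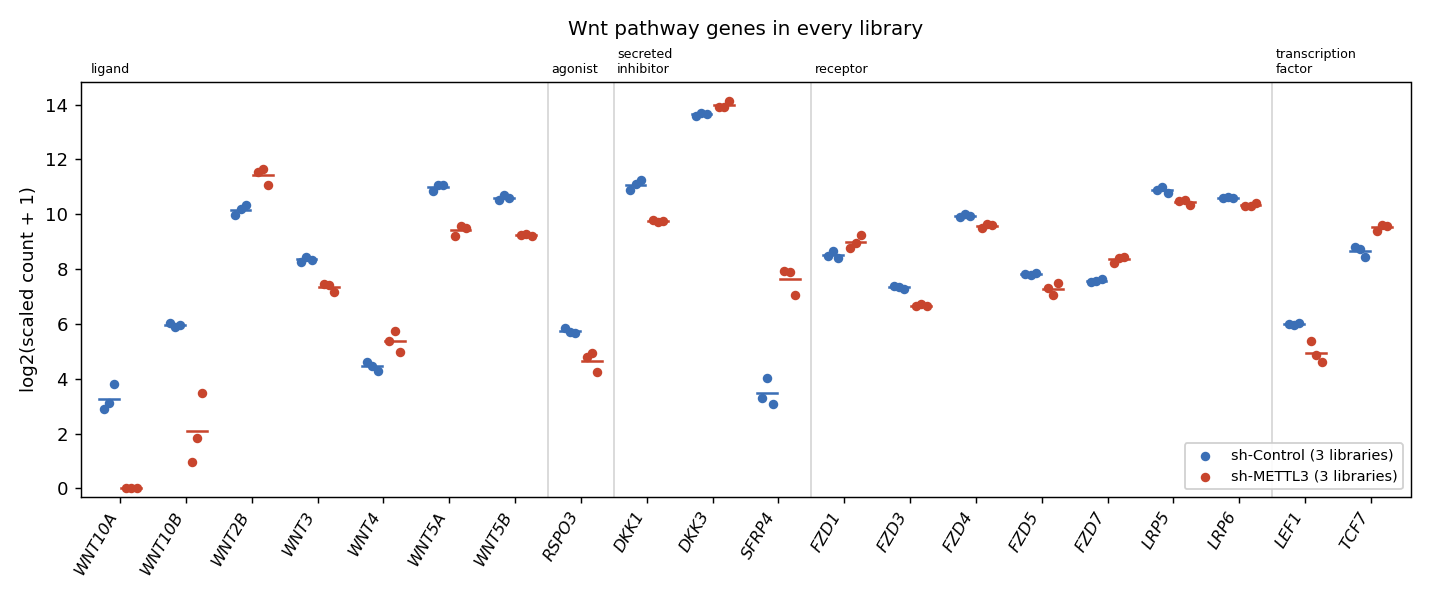
Log2 of scaled count + 1 (y axis) of the 20 Wnt pathway genes (x axis, grouped by role) in each of 3 sh-Control (blue) and 3 sh-METTL3 (red) libraries, with lines at the group means. Red points lie below blue ones for 5 of 7 ligands and above them for WNT2B and WNT4, and SFRP4 and DKK1 lie on opposite sides.

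Of 48 further Wnt pathway genes 24 were listed, 11 called higher and 13 lower, close to the 46.6% and 51.3% of all listed genes. With RLE size factors in edgeR 11 were higher and 7 lower. Genes of the planar cell polarity branch did not share a direction: CELSR1 went from 275 to 1144 (log2 fold change 2.05) and PRICKLE1 was higher (1.27), while VANGL2 was lower (-1.63). ROR1, a receptor for WNT5A, was lower like its ligand (-1.29). The beta-catenin co-activators BCL9 and BCL9L went in opposite directions (0.83 and -0.71), MYC, a target of many pathways, was lower (-0.74), and KREMEN1, a receptor for DKK1, was higher (0.81).

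In the TGF-beta and activin pathway 10 of 12 genes were lower, beside 51.3% of all listed genes. TGFB2 (ENSG00000092969, chromosome 1, 218346235 to 218444619, plus strand), the main isoform of the posterior eye, held 19189.8, 21969 and 23333 in sh-Control and 14540.2, 15115 and 11757 in sh-METTL3. Its log2 fold change was -0.64 (SE 0.102, adjusted p 0.000726 by limma), and 26.6% of its exonic length is shared with TGFB2-OT1 on the same strand. TGFB1 held 3897, 4545 and 3939 against 2981, 3137 and 3802 (log2 fold change -0.32, adjusted p 0.0199 by limma). The call of TGFB1 was lost with RLE size factors in edgeR (adjusted p 0.195), without the intensity trend (0.108) and without sh-Control replicate 2 or sh-METTL3 replicate 1 or 2 (0.0805 to 0.108). INHBA, the subunit of activin A, held 6643, 6869.9 and 7497 against 4544, 5124 and 2931 (log2 fold change -0.78, SE 0.164, adjusted p 0.00406 by limma). Replicate 3 of sh-METTL3 was the lowest library for TGFB2 and INHBA and the highest of its group for TGFB1. Per kb, the order was TGFB2, TGFB1, INHBA in both groups, with 4173, 1274 and 844 in sh-Control and 2680, 1021 and 506 in sh-METTL3, without overlap between neighbours. TGFB3 was not listed.

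FST (follistatin; ENSG00000134363, chromosome 5, 53480409 to 53487134, plus strand) binds and neutralises activin and had the lowest log2 fold change of this pathway. It held 751, 774 and 866 in sh-Control and 166, 152 and 91.8 in sh-METTL3, going from 797 ± 60.4 to 137 ± 39.5 (SD, n = 3), a mean 5.83-fold lower. The log2 fold change was -2.58 (SE 0.192, adjusted p 4.75e-06 by limma). Activin subunit and activin inhibitor were thus both lower.

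Receptors of this pathway were split 2 and 2. TGFBR2 (ENSG00000163513, chromosome 3, 30606502 to 30694142, plus strand), the type II receptor that every TGF-beta isoform needs, held 3822, 3534 and 3357 in sh-Control and 1621, 1528 and 1958 in sh-METTL3. Its mean was 2.10-fold lower (log2 fold change -1.07, SE 0.090, adjusted p 9.7e-06 by limma). TGFBR3 (betaglycan), a co-receptor that presents TGFB2, held 168, 152 and 135 against 253, 226 and 259 (log2 fold change 0.70, SE 0.129, adjusted p 0.00184 by limma). ACVR1C, a type I receptor of activin-like ligands, held 25.5, 26.9 and 28.98 against 66.2, 51.5 and 80.6 (log2 fold change 1.23, SE 0.229, adjusted p 0.00185 by limma). ACVR2B, a type II receptor for activins, was lower, with a log2 fold change of -0.52. Per kb, TGFBR2 stood at 759 and 362, ACVR2B at 29.1 and 20.3, TGFBR3 at 17.4 and 28.2 and ACVR1C at 2.95 and 7.19 in sh-Control and sh-METTL3. The receptors that rose were thus the 2 least abundant of the 4 in sh-Control. TGFBR1 was not listed.

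SMAD3, the main effector of TGF-beta, held 12431, 12939 and 13241 in sh-Control and 9162, 8474 and 8396 in sh-METTL3 (log2 fold change -0.57, SE 0.056, adjusted p 3.09e-05 by limma), and 24 of the 40 listed genes nearest to it on chromosome 15 were lower (median -0.29). SMAD4, the SMAD shared by both branches, held 1769, 1699.7 and 1848 against 1406, 1437 and 1553 (log2 fold change -0.27, adjusted p 0.00533 by limma). SMAD4 and TGFBRAP1, a protein that binds TGF-beta receptors (-0.27), were not past the threshold with RLE size factors (adjusted p 0.124 and 0.128). TGFB1I1 (Hic-5), a focal adhesion protein induced by TGF-beta, held 1588, 1711 and 1699 against 816, 928 and 819.7 (log2 fold change -0.96, SE 0.069, adjusted p 3.75e-06 by limma). SMAD2 was not listed.

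**Figure D5:**
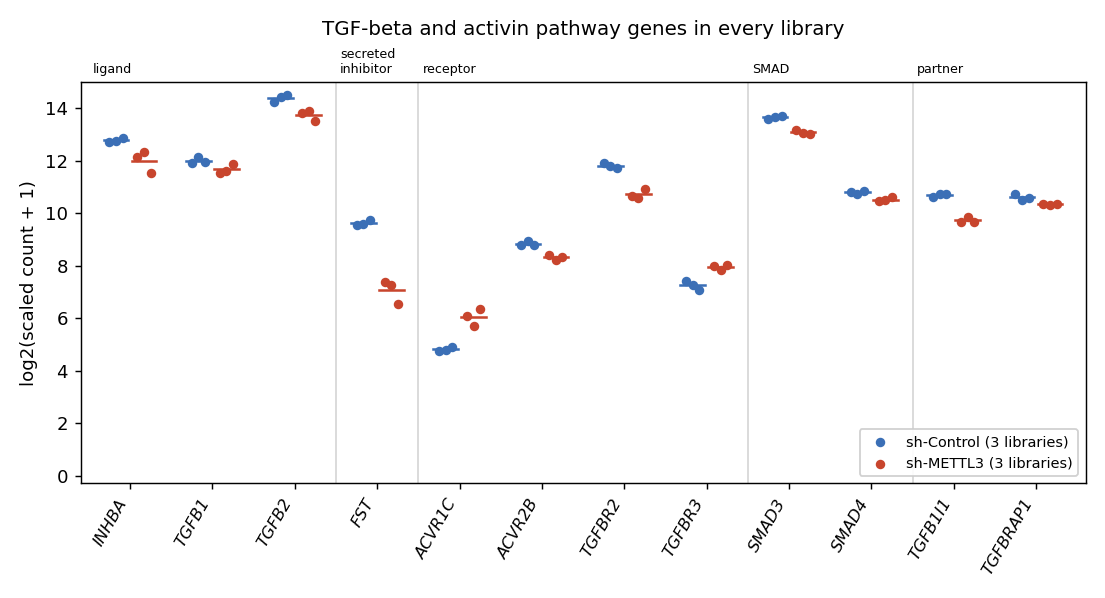
Log2 of scaled count + 1 (y axis) of the 12 TGF-beta and activin pathway genes (x axis, grouped by role) in each of 3 sh-Control (blue) and 3 sh-METTL3 (red) libraries, with lines at the group means. The red points lie below the blue ones for 10 genes, FST being the farthest apart, and above them for ACVR1C and TGFBR3.

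Of 24 further TGF-beta pathway genes 14 were listed, 3 called higher and 11 lower, beside 46.6% and 51.3% of all listed genes. With RLE size factors in edgeR 3 were higher and 9 lower. THBS1, which activates latent TGF-beta, and the latent TGF-beta binding protein genes LTBP2 and LTBP4 were lower (-0.88, -0.63 and -0.44), while LTBP3 of the same family was higher (0.29). The SMAD co-repressor gene SKI was lower (-0.63). TGFBI, a matrix protein named for its induction by TGF-beta, was higher (1.006), and so was the induced membrane protein PMEPA1 (0.40), while THBS1 and TGFB1I1, which TGF-beta is also known to induce, were lower. These target genes therefore did not move one way.

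Across the 4 pathways no gene of the 58 changed direction under any of the 19 alternative fits that gave it a value, and 44 also kept their side of the threshold. The 8 genes with a mean under 50 had no value where such genes were left out. The 14 others had absolute log2 fold changes under 1, and none of the genes that changed by 1 log2 unit or more was among them. The kept directions carry little information. Other filters, thresholds, adjustments, trends or a replicate block leave the estimate as it is. Leaving out 1 library cannot turn a gene whose groups do not overlap. JAGN1, the gene named alike, was lower (-0.30, adjusted p 0.00884 by limma) and lost its call with RLE size factors (0.131).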

How the data were processed

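Libraries were prepared by the submitters from total RNA with an Illumina TruSeq kit, and the submitters' processing notes name HISAT2 2.0.5 and hg38. Single-end reads and Cufflinks with RefSeq are named in the study's methods, a form that the table does not have, and the counter and the use of strand were not given in the sources used here. The authors deposited for each library a signal, which is each gene's reads over 1 size factor, and 100% of these values came out as whole reads (tolerance 0.01). The authors also deposited group means, fold changes, and p-values and adjusted p-values (at most 0.05), of which only the ratio of adjusted to raw p-values was used, giving 22977 tested genes, 33.8% of them listed. All 7758 starts, ends and exonic lengths equal GENCODE 29 on GRCh38, and 13 symbols turned into dates were restored from it.

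limma 3.58.1 in R 4.3.3 was fitted with an intensity trend to log2(scaled count + 1) of 7758 genes in 3 against 3 libraries, without covariates. Log2 fold changes on this scale understate those of low genes. P-values were adjusted by Benjamini and Hochberg over 22977 tests with unlisted genes counted as 1, at a threshold of 0.05. Levels were compared between genes only per kb of exonic length. Every pair of replicates differed by more than sampling noise. Library depth is unknown, and intervals and limits (3 reads for a count of 0) cover counting error only. Alternatives were edgeR 4.0.16, DESeq2 1.42.0 and limma-voom on the recovered reads, other pseudocounts, filters and thresholds, a replicate block, and each library left out in turn.

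The genes and lists were chosen with earlier results of these data known. Named with every library were, in each pathway, up to 4 genes with the largest rise and 4 with the largest fall, if called and with a mean in the higher group of at least 50, and the listed ones of a written list of 35 pathway genes, 41 in all. Unlisted genes were not analysed here.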

Additional observations from a re-analysis of the deposited data

How the results depend on the processing

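Among 19 alternatives none turned the direction of any of the 58 genes, and 44 genes kept their side of the threshold in all that gave a value. Many of these fits could not turn a direction. They keep the estimate itself or, with 1 library left out, its sign, because the groups did not overlap. RLE size factors in edgeR raised the median of all listed genes by 0.12 on the log2 scale and cost 7 calls (ACVR1, BMP2K, JAGN1, LRP6, SMAD4, TGFB1 and TGFBRAP1), after which 49.0% of called genes were higher, beside 43.1% as reported, and 14 were at a log2 fold change of at least 1 and 12 at -1 or below, in place of 11 and 16. The shares of all listed genes at these limits under RLE factors are not given here. Without the intensity trend 4 calls were lost, and at a threshold of 0.01 there were 9. With only genes of a mean of at least 50, the genes called with a log2 fold change of -1 or below numbered 10 in place of 16, because 8 genes, 6 of them among these 16, were no longer tested. Leaving out each library in turn gave 51 to 57 called genes, 21 to 25 higher, 30 to 33 lower, 11 to 13 at a log2 fold change of at least 1 and 13 to 17 at -1 or below, and moved the log2 fold change by over 1.5 times for 1 of the 58, JAG1 (0.20 without sh-METTL3 replicate 3), and for METTL3 (-0.18 without that replicate). The ratio of means moved by over 1.5 times for WNT10B (13.5 to 34.8 without sh-METTL3 replicate 3) and GDF6 (14.7 to 24.0 without replicate 1), and HEYL had 0 reads in sh-METTL3 without replicate 2. Replicate numbers did not pair the libraries, since the correlations of same-numbered deviations were 0.011, -0.043 and -0.053. With a replicate block 57 genes were called, all of them among the 58, and NOTCH2NLA was lost (adjusted p 0.0535 by limma). Selection of the table on these libraries limits all counts, and the depth of each library is unknown.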
